A study of Bos taurus with 18 samples.

Results

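ZAR1, OOSP1, ACCSL, UCHL1, LHX8, DAZL, DDX4, KIT and GPR3 are genes with RNA in the bovine oocyte that are neither its secreted growth factors nor its zona pellucida proteins. The 9 genes were picked by name from the 21668 rows of the deposited table for different timing of RNA loss in early development and because OOSP1 is higher after maturation. Not all of them are lost: KIT and DDX4 had their highest stage means in blastocysts. All 18 columns were used in that choice, so the levels of these 9 genes are given as a description and carry no test. All 9 had at least 1 read in at least 3 libraries.

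A growing oocyte stores messenger RNA that it does not translate at once, stops transcription before it matures, and lives on this store until the embryo's own genome becomes active. The store is then removed in steps, partly during meiotic maturation and partly around genome activation. The 9 genes stand for several sides of this programme. ZAR1 and DAZL encode RNA-binding proteins that control translation of stored transcripts, DDX4 (VASA) is an RNA helicase of germ cells, and LHX8 is a homeobox transcription factor of the growing oocyte. KIT is the receptor through which the oocyte receives KIT ligand from granulosa cells, and GPR3 is a receptor that holds the oocyte in meiotic arrest by raising cyclic AMP. OOSP1 encodes an oocyte-secreted protein, UCHL1 a ubiquitin C-terminal hydrolase abundant in oocytes and neurons, and ACCSL a protein related to aminocyclopropane-carboxylate synthase whose role in the oocyte is not settled.

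RNA was sequenced from 6 stages with 3 libraries each, and 10 oocytes or embryos were pooled for a library. The stages were germinal vesicle (GV) oocytes of the German Simmental breed, metaphase II (MII) oocytes of the same breed after maturation in vitro with FSH and LH, and embryos with 4, 8 or 16 cells and blastocysts, all of the German Simmental x Brahman cross and fertilised in vitro with semen of a Zebu bull. The 4-cell embryo thus differs from the MII oocyte in stage and in breed, which cannot be told apart there. Nothing in the labels ties a pool to particular cows or cultures beyond its number, so the spread between libraries is the spread between these pools.

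Levels are scaled counts, the number of reads recovered from the deposited values divided by the library's size factor, as mean ± SD (n = 3 pools). They are relative within a library, are not divided by gene length, and are compared here only within a gene. In such pools fewer cells that hold a transcript and less of it per cell cannot be told apart. Between 2438473 (16-cell replicate 2) and 11971840 reads (4-cell replicate 2) were assigned to genes, and 1 read was worth 0.602 to 3.02 scaled counts. The labels were checked against markers. The summed level of 9 oocyte markers ranged from 92914 to 171625 in libraries up to the 8-cell stage and from 102 to 345 in blastocysts. A list of 10 trophectoderm markers summed to 1361 to 3262 in 16-cell and 36377 to 72450 in blastocyst libraries. Among them KRT8, a keratin, went from 63.6 ± 45 in 16-cell embryos to 20972 ± 8585 in blastocysts. Only ID2 (962 and 162) and TFAP2A (53.4 and 34.2) had lower means in blastocysts. A list of 6 markers of inner cells summed to 9877 to 14897 at 16 cells and 8338 to 9623 in blastocysts. There only NANOG (1646 and 180) and KLF4 (8196 and 1621) had lower blastocyst means. Of 23 markers of cumulus and granulosa cells, FOXL2 and COL3A1 had 0 reads in GV, MII and 4-cell libraries, while HAS2 had 780 ± 255 in GV oocytes and SERPINE2 544 ± 358. The 23 summed to 4522 to 7193 in GV and 5121 to 7030 in MII libraries. VIM had 39.6, 142 and 723 in GV and 6.4, 52.2 and 19.3 in MII libraries, and FSHR and INHA had 101 and 97.4 in GV replicate 3 and at most 6.05 in any other oocyte library. From GV to MII the mean was lower for 13 of the 23 and higher for 8, with no call among 22 tested (limma and voom; 2 with an unadjusted p under 0.05, FSHR and VIM). All 3 MII libraries were higher for HAS2, PTX3, TNFAIP6 and PTGS2 and lower for FSHR and STAR. The HAS2 mean went to 1159, that of PTGS2 from 728 to 976 and that of STAR from 1782 to 1532. PTX3 and TNFAIP6 had MII means of only 13.1 and 2.37. Of all genes tested, 7.95% were higher and 9.96% lower in all 3 MII libraries. Fewest genes were detected in 8-cell replicate 2 (12393) and 16-cell replicate 1 (11970), and means that these libraries move by over 1.5 times are also given without them.

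**Figure D1:**
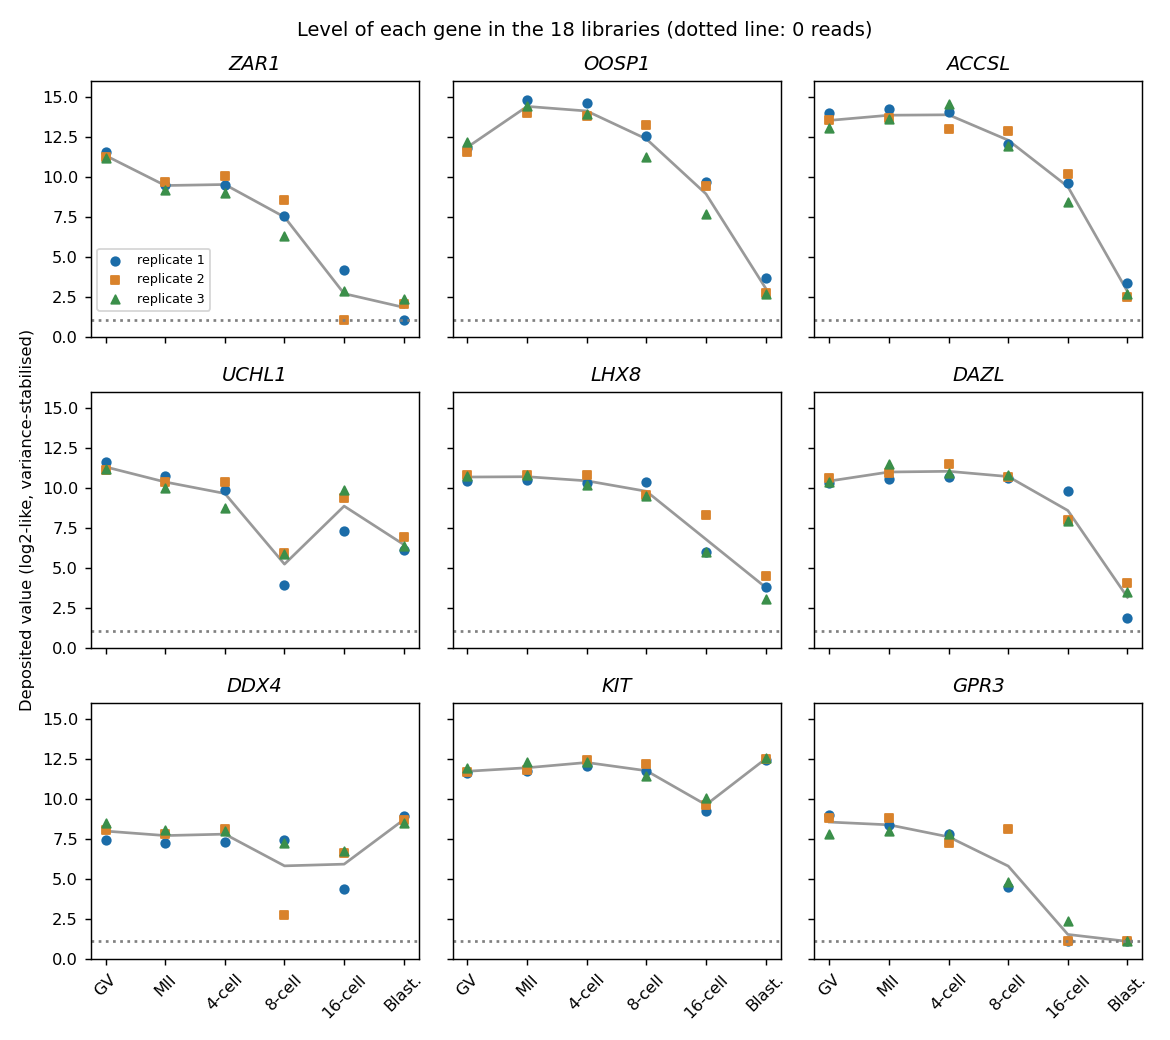
Deposited variance-stabilised values (log2-like, y axis) of the 9 genes in the 18 libraries by stage (x axis). Symbols are the 3 replicate pools, the grey line joins stage means, and the dotted line is the value of 0 reads. ZAR1, OOSP1, ACCSL, LHX8, DAZL and GPR3 end near the dotted line in blastocysts, whereas KIT and DDX4 are highest there and UCHL1 has its lowest mean at 8 cells.

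At maturation, OOSP1 and ZAR1 moved in opposite directions. OOSP1 had 3952, 3303 and 5010 scaled counts in GV oocytes and 30276, 17886 and 23688 in MII oocytes. Every MII library was above every GV library, and the means, 4088 ± 862 and 23950 ± 6199, differed 5.86-fold. On the deposited scale the difference was 2.54, it stayed between 2.35 and 2.73 without any 1 library, and it was 2.85 with library medians set equal. ZAR1 had 3315, 2638 and 2488 scaled counts in GV oocytes and 772, 896 and 632 in MII oocytes, without overlap, and its mean was 3.67-fold lower in MII oocytes (2814 ± 441 and 767 ± 132). UCHL1 was the third gene without overlap, with 3412, 2374 and 2480 in GV and 1871, 1410 and 1075 in MII oocytes, a mean 1.9-fold lower. Without GV replicate 3, which held the most VIM, FSHR and INHA, the differences on the deposited scale were 2.69 for OOSP1, -1.96 for ZAR1 and -1.01 for UCHL1. The other 6 genes overlapped between the stages, with means that differed between 1.01-fold (LHX8) and 1.53-fold (DAZL). Among the 17138 genes with reads in at least 3 libraries, all 3 MII libraries were lower in 9.96% and higher in 7.95%. For the 9 genes chosen on these columns these shares are background only, as are those given for the later stages.

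In RefSeq (assembly ARS-UCD2.0), the gene listed here as OOSP1 carries the symbol OOSP2 with OOSP1 as its older name, but the annotation behind the deposited rows is not given in the sources used here, so which of these names the row stands for was not settled. ZAR1 overlaps FRYL in the same gene table. FRYL had 1548 ± 145 in GV and 1881 ± 464 in MII oocytes and lay between 1710 ± 279 and 2020 ± 864 at the embryo stages, and its libraries overlapped in each comparison of neighbouring stages. The libraries do not mark strand, and how reads in the overlap were counted is not given in the sources used here.

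From the MII oocyte to the 4-cell embryo, 8 of the 9 genes overlapped. Only GPR3 had all 3 embryo libraries below the oocyte libraries, with 342, 479 and 262 in MII oocytes and 236, 159 and 236 in 4-cell embryos, a mean 1.72-fold lower. Of all genes tested, 10.4% had all 3 embryo libraries lower and 7.40% had all 3 higher, a pattern that none of the 9 genes showed. ZAR1, already reduced in MII oocytes, had 833 ± 313 at 4 cells, so that its course had a step at maturation and none at this transition. OOSP1 kept 83.2% of its MII mean (19917 ± 6677), and ACCSL had its highest mean at 4 cells (17849 ± 8678), with libraries of 18351, 8931 and 26265 that spanned the whole range of the GV and MII libraries. DAZL and KIT had 4-cell means of 2311 ± 671 and 5301 ± 683. These were 1.56-fold (DAZL) and 1.47-fold (KIT) above the GV means, and neither gene was separate from the MII libraries.

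At the 8-cell stage, when the bovine genome becomes broadly active, the genes differed in how much RNA was left. UCHL1 went from 1006, 1395 and 453 scaled counts in 4-cell embryos to 12.2, 61.3 and 57.6, a 21.8-fold lower mean. ZAR1 went to 203, 409 and 82.9, OOSP1 to 6656, 10669 and 2660 and ACCSL to 4552, 8114 and 4303, means that were 3.6-fold, 2.99-fold and 3.16-fold lower than at 4 cells. In these 4 genes every 8-cell library was below every 4-cell library, against 12.9% of all genes tested. None of the 9 was higher in all 3 8-cell libraries, against 13.0%. LHX8 (984 ± 358) and DAZL (1794 ± 91.8) kept 55% and 77.6% of their highest stage mean, and KIT had 3782 ± 1014, a mean 1.4-fold below that at 4 cells. The libraries of these 3 genes overlapped with the 4-cell libraries. DAZL was the most even of the 9 genes at this stage, with 1704, 1790 and 1887.

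GPR3 and DDX4 differed widely between 8-cell libraries. GPR3 had 19.8 and 25.3 in replicates 1 and 3 but 291 in replicate 2, where it exceeded all 4-cell libraries. Its 8-cell mean was 112 ± 155 with replicate 2 and 22.6 without it. DDX4 showed the reverse, with 181 and 160 in replicates 1 and 3 but 3.27 in replicate 2, which is 4 reads. The same library held the highest value of the stage for ZAR1, OOSP1, ACCSL, UCHL1, KIT and GPR3, 6 of the 9 genes, and without it the ZAR1 mean was 143 in place of 232 ± 165. Of 693 other genes with stage means of at least 200 up to the 4-cell stage and a blastocyst mean under 10% of the 4-cell mean, 465 (67.1%) also had their highest 8-cell value in replicate 2. These genes were chosen for their loss, and the share among all genes tested is not given here. Whether the embryos of this pool were at an earlier point than those of the other pools was not tested.

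**Figure D2:**
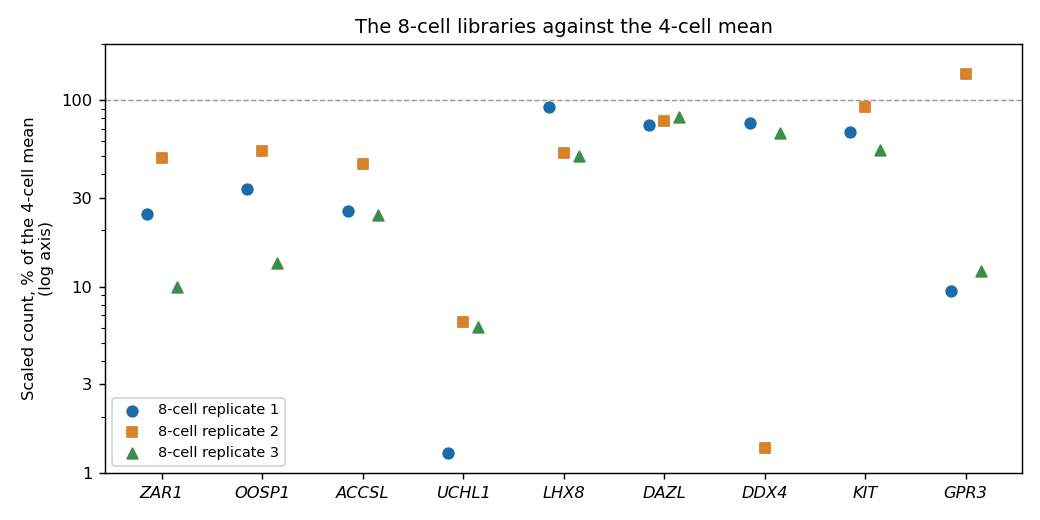
Scaled count of each gene in each of the 3 8-cell libraries, as a percentage of its 4-cell mean (y axis, log scale; dashed line, 100%). Replicate 2 (squares) is the highest library for 6 of the 9 genes, with 138% for GPR3 against 9.43% and 12% in the others, and the lowest for DDX4 at 1.37%.

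By the 16-cell stage the mean of each gene was under 50% of its highest stage mean. GPR3 was left with a single read over the 3 libraries, and ZAR1 with 15.6, 0 and 3.97 scaled counts (13, 0 and 2 reads). OOSP1 had 906, 750 and 215, ACCSL 830, 1239 and 368, LHX8 65, 342 and 65.6, DAZL 972, 272 and 258 and KIT 634, 813 and 1145. For these 7 genes all 16-cell libraries were below all 8-cell libraries, against 16.2% of all genes tested. The sizes of the step differed, with means 10.7-fold lower for OOSP1, 6.96-fold for ACCSL, 6.25-fold for LHX8, 4.38-fold for KIT and 3.58-fold for DAZL. The LHX8 mean of 157 ± 160 was 65.3 without replicate 2, and the DAZL mean of 501 ± 408 was 265 without replicate 1. DDX4, at 18, 99.8 and 111, overlapped with the 8-cell libraries.

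UCHL1 was the exception at 16 cells. Its libraries held 168, 720 and 998 scaled counts, all above the 8-cell libraries, and its mean was 14.4-fold higher (43.7 ± 27.3 and 629 ± 422). All 3 libraries were higher in 15.4% of all genes tested. The 16-cell libraries overlapped with the 4-cell libraries (453 to 1395), and their mean was 4.38-fold below the GV mean. In blastocysts UCHL1 was again lower, at 69.2, 128 and 82.9, a mean 6.73-fold below the 16-cell mean and 2.13-fold above the 8-cell mean.

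In blastocysts most of the genes were near the limit of detection. ZAR1, OOSP1, ACCSL, LHX8 and DAZL kept means between 1.08 ± 1.04 (3 reads over the 3 libraries, ZAR1) and 11.9 ± 7.46 (37 reads, LHX8). GPR3 had 0 reads in 3 libraries, at least 451-fold lower than in GV oocytes when 3 reads over the 3 libraries are taken as the limit of detection. For OOSP1, ACCSL, LHX8 and DAZL, and for UCHL1, all blastocyst libraries were below all 16-cell libraries, against 15.5% of all genes tested. Against the 4-cell embryo the blastocyst mean was 4253-fold lower for ACCSL, 3595-fold for OOSP1, 300-fold for DAZL and 127-fold for LHX8. These folds rest on 15, 20, 21 and 37 blastocyst reads, and without 1 blastocyst library they ranged from 3484 to 6544, from 2949 to 6010, from 207 to 513 and from 98.9 to 191. A blastocyst mean under 1% of the highest mean up to the 4-cell stage was found for these 4 genes, ZAR1 and GPR3, and for 250 of 5577 other genes with a mean of at least 200 in oocytes (4.48%).

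KIT and DDX4 had their highest stage means in blastocysts. KIT held 6004, 6076 and 6458 scaled counts, 7.15-fold above its 16-cell mean. Its highest value at an earlier stage was 5876, in 4-cell replicate 2. DDX4 held 514, 442 and 372, 5.8-fold above its 16-cell mean of 76.4 ± 50.8, and overlapped with the GV libraries (179, 281 and 375). All 3 blastocyst libraries were higher than the 16-cell libraries in 21.6% of all genes tested. A 16-cell mean under 50% of each earlier mean up to 4 cells, followed by a blastocyst mean above the lowest of them, was found for KIT and DDX4 among the 9 genes and for 261 of the 5577 other genes (4.68%). Mast cells and other blood cells also express KIT. Of 7 markers of such cells, PTPRC, HBA and TPSB1 had 0 reads in blastocysts. HBB (11.8 ± 14.6, 34 reads), CD14 (3.08 ± 1.63, 9 reads) and CPA3 (2 reads) had their highest means there. The 7 summed to 2.03 to 6.28 in GV, 234 to 254 in 16-cell and 99.7 to 141 in blastocyst libraries. Most of the 16-cell and blastocyst sums came from CD68 (111 ± 38.2 in blastocysts). Markers of sperm and testis, 6 in number, were also checked. They summed to 82.9 to 1100 in blastocyst libraries and to 0 to 52.7 in 8-cell libraries, the highest of the earlier stages. In blastocysts TNP1 had 429 ± 523, PRM1 24.3 ± 35.1 and TNP2 6.95 ± 7.55, while PRM2, ODF1 and AKAP4 had 0 reads. Whether this is linked to the DDX4 level was not tested. The pools do not show which cells of the blastocyst hold the RNA.

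**Figure D3:**
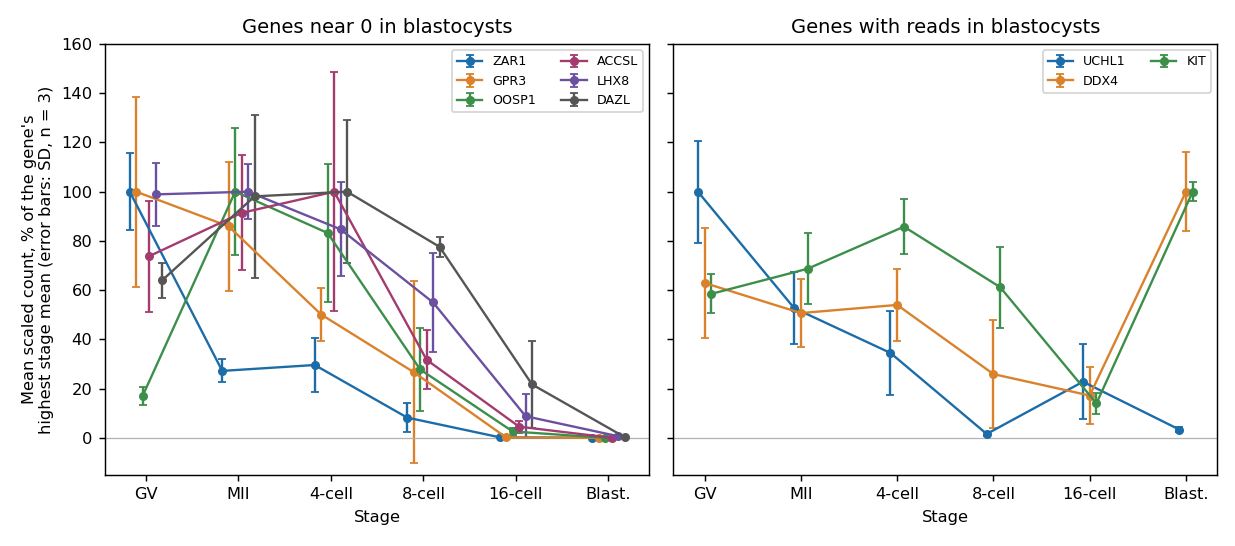
Stage means of scaled counts as a percentage of each gene's highest stage mean (y axis), by stage (x axis); error bars are the SD of 3 pools on the same scale, and points are offset sideways for legibility. The left panel holds the 6 genes near 0 in blastocysts, of which ZAR1 is at 27.2% by the MII stage and DAZL still at 77.6% at 8 cells; the right panel holds UCHL1, DDX4 and KIT, with KIT at 14% in 16-cell embryos.

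The order of loss can be read from the stage from which a gene's mean stayed under 50% of its highest stage mean. This stage was the MII oocyte for ZAR1, the 4-cell embryo for UCHL1 and the 8-cell embryo for OOSP1, ACCSL and GPR3. For LHX8 and DAZL it was the 16-cell embryo. The rule can give no stage for DDX4 and KIT, whose highest mean is in the last stage, the blastocyst. At 16 cells these genes had 17.2% and 14% of that mean. The shares of other genes given below cover genes that peak by the 4-cell stage, not courses like those of DDX4 and KIT. GPR3 lay close to the limit at 4 cells, with 50.1%, and LHX8 at 8 cells, with 55%. Among 2961 other genes with their highest stage mean in GV, MII or 4-cell libraries and of at least 200, the shares were 3.55% for the MII oocyte, 6.79% for the 4-cell, 21.2% for the 8-cell, 33% for the 16-cell embryo and 10.9% for the blastocyst, while 24.6% did not reach it. Under 10% of the highest mean, ZAR1 was the earliest of the genes that stayed there (8-cell, as for 1.25% of the others). It was followed by OOSP1, ACCSL, LHX8 and GPR3 (16-cell, 11%), and then UCHL1 and DAZL (blastocyst, 13.9%). The place of ZAR1 before GPR3 rests on single 8-cell libraries. Without replicate 2 the GPR3 mean there was 22.6 against 420 in GV oocytes, under 10%. Without replicate 3 the ZAR1 mean there was 306 against 2814 in GV oocytes, over 10%.

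The genes with the most similar courses were sought by Pearson's r of the deposited values over the 18 libraries among 9276 other genes with a symbol and a mean scaled count of at least 50. These coefficients mostly reflect the stages the libraries share and are a description. OOSP1 was most like GFI1, a zinc finger repressor (r = 0.989), with GFI1 means of 1010 in GV, 3488 in MII and 3136 in 4-cell libraries, and next like THAP9 (0.979) and CCNYL1 (0.977). ACCSL was most like NLRP9 (0.993), WEE2, the oocyte kinase that inhibits CDK1 (0.992), and H1FOO, the oocyte linker histone (0.990). ZAR1 was most like NLRP2 (0.970), CAPRIN2 (0.967) and TSPAN5 (0.966), and LHX8 like RGS16 (0.992), CCDC135 (0.985) and FRZB (0.984). DAZL was most like ELAVL2, another RNA-binding protein gene, listed by locus number (0.985), EYA1 (0.984) and TMTC2 (0.983). GPR3 was most like MGC133764 (0.975), TMEM159 (0.967) and UXS1 (0.967).

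KIT, DDX4 and UCHL1 had other neighbours. KIT was most like USP48 (0.968), which had 231 in 16-cell embryos and 3293 in blastocysts, and then BICRAL (0.955) and ABCA5 (0.949). DDX4 was most like OBFC1 (0.960), NUCB2 (0.914) and FH, fumarate hydratase (0.906). UCHL1 had no gene above 0.878 (RPP21), and GFM2 had 0.866. Among the 9 genes themselves, r was 0.98 between OOSP1 and ACCSL and 0.96 both between ZAR1 and GPR3 and between ACCSL and LHX8, but 0.02 between OOSP1 and KIT and -0.32 between DAZL and DDX4.

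Lists of genes that work with the 9 or are related to them were then compared between neighbouring stages with limma over all 18 libraries, and a rise or fall is an adjusted p (Benjamini-Hochberg, over 17138 genes) under 0.05. The lists held 147 genes tested, none of them among the 9. In MII against GV oocytes 1 gene fell and none rose (limma; voom gave 2 falls and 0 rises, and the unadjusted p was under 0.05 for 14), against 0.613% and 0.0992% of all genes. In 4-cell embryos against MII oocytes 1 rose and 1 fell, against 0.0642% and 0.729%. At 8 cells 15 rose (10.2%) and 10 fell (6.8%), against 8.64% and 4.13% of all genes. At 16 cells 15 rose (10.2%) and 49 fell (33.3%), against 14.8% and 16.3%, and the median difference of the list genes was -0.58 against 0.00 for all genes. In blastocysts 24 rose (16.3%) and 41 fell (27.9%), against 18.2% and 13.1%, with medians of -0.47 and 0.18.

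Of the 29 genes tested for partners of ZAR1 and for translational control, 13 fell at 16 cells and 2 rose, and in blastocysts 13 fell and 3 rose. ZAR1L, the closest relative of ZAR1, had 1777 ± 152 in GV and 1007 ± 293 in MII oocytes without a call (adjusted p = 0.75, limma). It fell from 585 ± 64 in 8-cell to 85 ± 46.4 in 16-cell embryos (difference -2.89 ± 0.50 SE, adjusted p = 0.00022). CPEB1, which holds messages dormant through their short poly(A) tails, fell from 1294 ± 206 to 300 ± 265 at 16 cells (153 without replicate 2) and to 1.43 ± 2.47 in blastocysts. BTG4, which recruits the CCR4-NOT deadenylase, fell at the same steps, from 41576 ± 14498 to 4470 ± 3019 and 68.7 ± 69.2 (30.9 without blastocyst replicate 2). ZCCHC6 (TUT7), which adds uridines to messages with short tails, rose instead from 1376 ± 276 in 4-cell to 14038 ± 6084 in 8-cell and 33540 ± 5234 in 16-cell embryos and fell to 890 ± 255 in blastocysts. ELAVL2, listed by locus number, fell at 16 cells from 2186 ± 426 to 1001 ± 799, or 542 without replicate 1 (adjusted p = 0.012), a call lost in 3 of 6 fits without 1 library (8-cell replicate 2, 16-cell replicate 2 or 3, up to 0.08), and in blastocysts to 27.8 ± 10.5. PABPC1L, which binds poly(A) tails in the oocyte, was the 1 list gene that fell at maturation, from 682 ± 392 to 46.1 ± 19.2 (adjusted p = 0.0059), and the 1 that rose at 4 cells, to 361 ± 129 (adjusted p = 0.036). It was named after these values were seen. Its fall was lost in 2 of 6 fits without 1 library (GV replicate 1 or MII replicate 2, adjusted p up to 0.075) and its rise in all 6 (up to 0.22).

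Among 28 germ-cell RNA regulators tested around DAZL and DDX4, 10 fell and 4 rose at 16 cells (2 rose without 8-cell replicate 2 or 16-cell replicate 3), and 11 fell and 4 rose in blastocysts. PIWIL3, a PIWI protein that binds small RNAs in oocytes, had 590 ± 641 at 8 cells, or 221 without replicate 2 (1328), and fell to 68.8 ± 19.1 at 16 cells and 1.27 ± 1.63 in blastocysts. TDRD7, a Tudor protein of germ granules, fell at 8 cells, from 3693 ± 651 to 1029 ± 244, and again at 16 cells to 264 ± 173 (169 without replicate 1). TFAP2C and PRDM14, transcription factors of germ-cell specification that also act in the early embryo, rose at 8 cells, from 0.804 ± 0.92 to 4168 ± 944 and from 0 reads to 514 ± 163. BOLL, of the same family as DAZL, fell only in blastocysts (limma), from 104 ± 46.1 to 13.4 ± 4.81 (adjusted p = 0.0016). DDX3X, a helicase related to DDX4, had no call by limma (adjusted p = 0.035 at 16 cells without 8-cell replicate 3), and its Y-linked copy DDX3Y rose at 8 cells from 1 read over the 3 libraries to 378 ± 199; the sequences are similar, and how shared reads were counted is not given in the sources used here.

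Of 20 transcription factors tested around LHX8, 8 fell and 3 rose at 16 cells. FIGLA, which drives zona pellucida genes, had 2732 ± 768 in GV, 1299 ± 311 in MII and 255 ± 105 in 4-cell libraries without a call by limma (voom called the step to 4 cells, adjusted p = 0.014) and fell to 27.4 ± 18 at 8 cells (adjusted p = 0.0028), whereas LHX8 still had 984 ± 358 there. NOBOX, an oocyte homeobox factor named after its values were seen, had 707 ± 305 in GV oocytes and fell at 8 cells from 332 ± 95.2 to 90.9 ± 20 (adjusted p = 0.026), a call lost in 5 of 6 fits without 1 library, all but that without 8-cell replicate 1 (up to 0.12). LHX2, of the same homeobox class as LHX8, fell at 4 cells from 2906 ± 65.5 to 654 ± 191 (adjusted p = 0.0056), a call lost without 4-cell replicate 3 (0.053). FOXO1 fell at 16 cells from 6385 ± 1287 to 1417 ± 427 and in blastocysts to 55 ± 14. TAF4B, an oocyte form of a general transcription factor subunit, rose at 8 cells from 317 ± 28.2 to 3899 ± 262 and fell to 656 ± 77.8 in blastocysts.

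For KIT signalling, 10 of 30 genes tested fell and 4 rose at 16 cells, where KIT had its lowest mean, and the falls were 6 without 8-cell replicate 1. CBL, a ubiquitin ligase of activated receptors, fell from 1265 ± 74.1 to 393 ± 181 (adjusted p = 0.00092). In blastocysts 6 rose and 4 fell, shares near those of all genes, and the rises were 2 with library medians set equal and 3 without blastocyst replicate 2. PIK3CB, a catalytic subunit of phosphoinositide 3-kinase, rose at 16 cells from 517 ± 346 (340 without replicate 1) to 1425 ± 539 (adjusted p = 0.01, limma), a call lost without 8-cell replicate 2 (0.079). Its rise in blastocysts to 3162 ± 88.2 was lost in 5 of 6 fits without 1 library, all but that without 16-cell replicate 1 (up to 0.19). The ligand gene KITLG, named as the partner of KIT after its values were seen, had 85.7 ± 18.7 in GV oocytes and 382 ± 101 at 16 cells, and fell to 62 ± 13.3 in blastocysts (difference -2.52 ± 0.55 SE, adjusted p = 0.0014). RPS6, a ribosomal protein gene on this list, rose at 8 cells from 127 ± 19.5 to 661 ± 129 and at 16 cells to 3005 ± 435. Its RNA level does not measure activity of the pathway. Of the receptors related to KIT, PDGFRA rose at 8 cells from 16.8 ± 27.9 to 1294 ± 834 (840 without replicate 3), FLT3 rose in blastocysts from 0 reads to 455 ± 156, and CSF1R fell in blastocysts from 1264 ± 743 to 56.1 ± 36.1.

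For cyclic AMP and meiotic arrest around GPR3, 8 of 29 genes tested fell and 2 rose at 16 cells (0 rose without 8-cell replicate 1 or 2), and 7 fell and 5 rose in blastocysts. GPR12, a close relative of GPR3 with the same coupling, had 331 ± 52.6 in GV, 360 ± 25.9 in MII and 143 ± 36.7 in 4-cell libraries and fell at 16 cells from 118 ± 75.4 to 7.45 ± 11.9 (adjusted p = 0.00075). GPR6, the third receptor of this group, had a highest mean of 0.402 ± 0.695 and was not tested. PDE3A, the phosphodiesterase that breaks down cyclic AMP in the oocyte, fell from 1128 ± 702 (735 without replicate 2) to 188 ± 130 at 16 cells (113 without replicate 2) and to 0 reads in blastocysts. WEE2 fell from 4268 ± 1585 to 663 ± 335 and 1.3 ± 1.45, and MOS, the kinase that keeps the egg at metaphase II, from 337 ± 214 to 32.2 ± 33.3 at 16 cells (220 and 15 without replicate 2 of each stage). In blastocysts MOS had 0.867 ± 0.761, with no call by limma (adjusted p = 0.063) but one with the replicate block (0.0095), with equal medians (0.028) and without 16-cell replicate 3 (0.0004). CCNB1, a cyclin needed in every dividing cell, fell only in blastocysts by limma over all libraries, from 6657 ± 2176 to 1438 ± 332. Without 16-cell replicate 1 limma also called a fall at 16 cells (adjusted p = 0.033).

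Relatives of the other genes had different courses. UCHL3 had no call at any step by limma over all libraries (its step to the blastocyst was called without blastocyst replicate 1, adjusted p = 0.046), with 3550 ± 701 in MII, 2061 ± 975 in 8-cell and 1077 ± 524 in blastocyst libraries, and UCHL5 rose in blastocysts from 207 ± 66.6 to 1005 ± 346. BAP1, a further hydrolase of the family, ranged from 71.6 ± 22.8 to 372 ± 222 (245 without replicate 2) in blastocysts without a call. ACCS, the nearest relative of ACCSL and its neighbour in the genome by the RefSeq gene table, had no mean above 29 ± 32.1 (10.9 without 4-cell replicate 1) and no call by limma (adjusted p = 0.049 for the step to 8 cells without 8-cell replicate 2). PLAC1, which is related to the oocyte-secreted proteins, had 61.1 ± 24.9 in GV and 8.65 ± 10.3 in MII oocytes without a call by limma (adjusted p = 0.052; 0.046 with no filter and 0.027 without MII replicate 2) and 0 reads from 8 cells on. LHX6 had no mean above 3.15 ± 1.27.

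**Figure D4:**
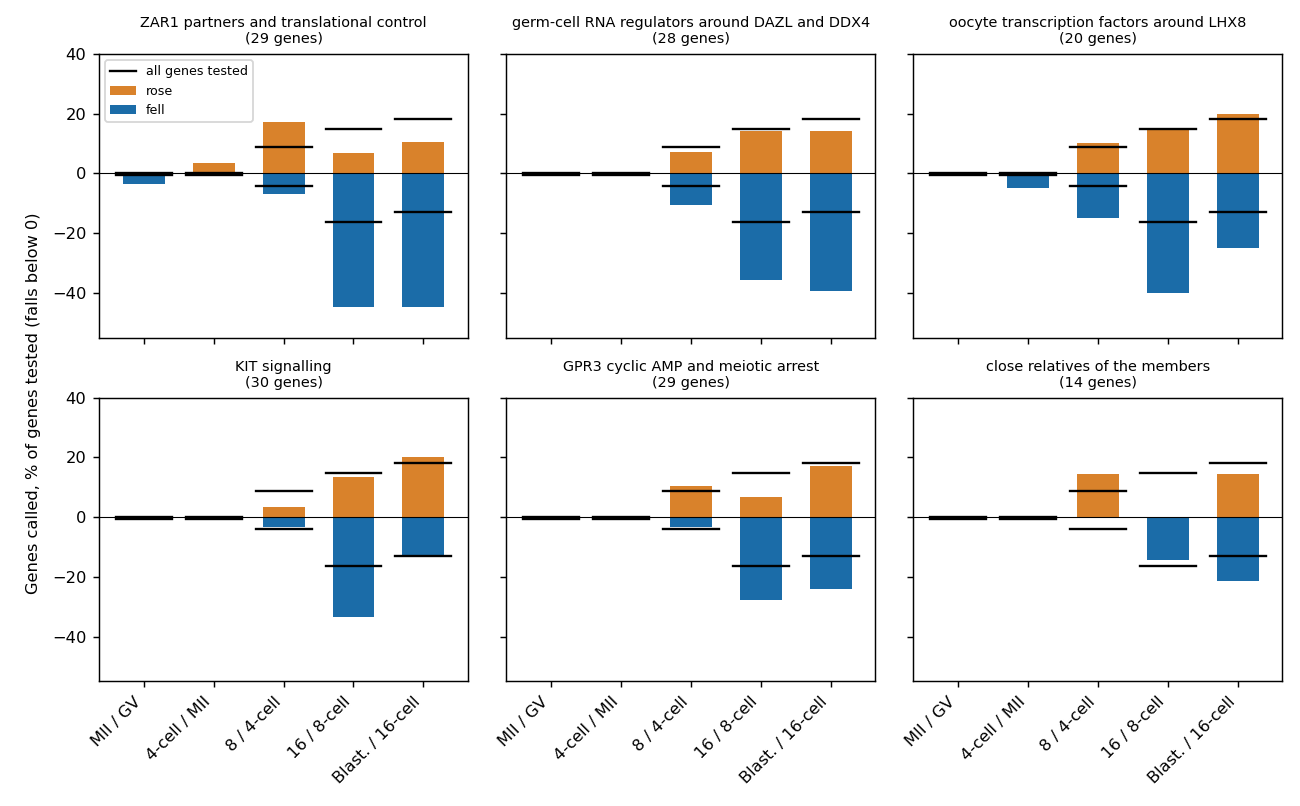
Share of list genes that rose (above 0) or fell (below 0) at each step, in percent of the genes tested (y axis; limma, adjusted p under 0.05), for 6 lists of 14 to 30 genes. Black lines give the share of all 17138 genes tested, for example 16.3% falling at 16 cells, where 13 of 29 genes of the ZAR1 list fell.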

How the data were processed

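The authors deposited 1 table of variance-stabilised log2 values for 21668 genes in 18 libraries. The submitters' processing notes name CASAVA 1.6, TopHat2 2.0.3, HTSeq, DESeq and the build UMD3.1. Not given in the sources used here are the annotation and the treatment of reads with several matches. The lowest value, 1.097, is 0 reads. Inverting the transformation gave whole reads for all 390024 values (tolerance 1e-06). Reads divided by size factors (median of ratios, set to a geometric mean of 1) are the scaled counts. Every column matched a sample.

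The main test was limma 3.58.1 (R 4.3.3) on the deposited log2 values, with stage as the model, all 18 libraries, a variance trend and Benjamini-Hochberg adjustment, for genes detected (1 read or more) in 3 or more libraries. Alternatives were voom on recovered reads, equal library medians, no filter, the replicate number as a block, and each library left out. The procedure was tested on simulated reads. Tables and plots used Python 3.11.15, pandas 2.3.3 and matplotlib 3.10.9. Locus numbers and older symbols were matched through RefSeq (ARS-UCD2.0), which was otherwise used only for which genes overlap or neighbour each other. No sequences are shown.

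The genes, the lists, the tests and the alternatives were chosen with earlier results of these data known. Named from each list were up to 4 called genes with the smallest p of the F test over stages and every close relative, and for each of the 9 genes the 3 with the highest r. The lists share genes with one another: ZAR1L, BOLL, GPR6 and GPR12 stand in 2 lists each. Some genes that this rule names are not reported here. Deviations of same-numbered libraries from their stage mean correlated over 0.1 in all 3 pairs of the 16-cell and blastocyst stages (r from 0.11 to 0.13). No other neighbouring stages met this in all 3 pairs. For different numbers in these 2 stages r was -0.094 to -0.034. Such deviations sum to 0 within a stage, so positive r for equal numbers forces negative r for others, and the contrast is no separate evidence. Whether the numbers pair these pools was not settled. The main fit has no block, and counts with the replicate block are given below.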

Additional observations from a re-analysis of the deposited data

How the results depend on the processing

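Setting library medians equal moved the median difference of all genes by -0.31 (MII against GV), -0.12, 0.24, 0.12 and 0.36 (blastocyst against 16-cell). Under it, 41 of 45 changes of the 9 genes between neighbouring stages moved by less than 1 SD; the change became -1.56 for ZAR1, 0.33 for LHX8 and 0.54 for KIT at maturation, and 2.51 for KIT in blastocysts. The sign differed in some setting for LHX8, DDX4 and GPR3 at maturation, ZAR1, ACCSL, DAZL and DDX4 at 4 cells, DDX4 at 16 cells (-1.43 to 0.92) and GPR3 in blastocysts. With scaling by total reads, all 54 shares of the highest mean moved by less than 1 SD.

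Genes rising at maturation numbered 17, but 49 with voom and 32 with the replicate block; at 4 cells they numbered 11, but 19 with voom and 18 with the replicate block. With equal medians 58 genes fell at maturation in place of 105, and 73 at 4 cells in place of 125. Without 1 library, 4 to 11 genes rose and 16 to 57 fell at maturation, 3 to 8 rose and 55 to 90 fell at 4 cells, and 364 to 722 fell at 8 cells in place of 708. The cause was not tested. The counts at the later steps stayed within 1.5 times. Over all 45 same-numbered pairs of libraries of different stages, r ranged from -0.11 to 0.2 (median 0.04, 11 over 0.1). Libraries with different numbers also reached such values, as GV replicate 1 with blastocyst replicate 2 (r = 0.1608). Whether the numbers pair the pools of 16-cell embryos and blastocysts is not stated in the labels and was not settled. For blastocysts against 16-cell embryos 3228 genes rose and 2402 fell with the replicate block, in place of 3117 and 2250. Of the genes named from the lists only MOS changed its call at that step. Depth limits values of a few reads, as for ZAR1 and GPR3 from 16 cells on and for OOSP1, ACCSL, LHX8 and DAZL in blastocysts.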
